A study of Drosophila melanogaster with 4 samples.

Results

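The regions described here are the stretches of histone H3 monomethylated at lysine 27 (H3K27me1) called on the 6 scaffolds of Drosophila melanogaster heterochromatin that were assigned to a chromosome but not joined to an arm: 2LHet, 2RHet, 3LHet, 3RHet, XHet and YHet. They were chosen by scaffold name alone from the list of enriched regions deposited for the whole series, and number 851 of 12362 regions. Chromatin immunoprecipitation with sequencing (ChIP-seq) was done on wild-type larvae of instar 3, strain Oregon-R, using a Millipore antibody raised in rabbit (polyclonal), giving 2 ChIP samples, each with its own region list, beside 2 input samples with no file analysed here. The labels name no organ and no sex, and leave unsaid whether the 2 ChIP samples were collected separately, so their spread may be technical. On the same scaffolds the list of replicate 1 held 245 regions and that of replicate 2 held 264.

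Pericentric heterochromatin surrounds the centromeres, is built largely of repeats and transposable elements and is packed with histone H3 methylated at lysine 9 and the protein HP1; it also holds essential genes that are transcribed there. In flies, methyl groups on lysine 27 of histone H3 are placed by E(z), the enzyme of the Polycomb repressive complex, and the trimethylated form is the mark of Polycomb repression. In mouse cells the monomethylated form is known from pericentric heterochromatin and from transcribed gene bodies. Each region carries an enrichment score computed by the authors, whose scale is not stated, so no fold is formed from scores. Sequencing depth is unknown. No genome or gene annotation of the build of the files, FlyBase release 5, was used, so no gene is named and no base sequence is shown.

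H3K27me1 regions were sparse on these scaffolds in each replicate. They covered 5.67% of the 9.28 Mb in replicate 1 and 6.29% in replicate 2, a mean of 5.98% ± 0.44 (SD, n = 2), against 19.4% ± 2.9 on the 4 autosomal arms. Both replicates were lower on the scaffolds, at 0.26 and 0.36 times the arms, and the whole-series list at 0.60 times. With only the higher-scoring 50% of each list kept, the mean was 3.98%. With 2 replicates the smallest two-sided p of an exact sign-flip test is 0.5, and this and the other differences from the arms are given as descriptions. Coverage within the last 1 Mb of arm sequence on the centromere side was 19.1% ± 0.04, so the arm ends beside the heterochromatin did not share its low value. U, the unplaced sequence, was covered less than the scaffolds by every list. Replicate 1 covered 1.54% of it, replicate 2 covered 1.49% and the whole-series list covered 7.44%. Low coverage was therefore not particular to the scaffolds. The scaffold lengths count repetitive and unsequenced bases, whose number is unknown here and whose part in the low coverage was not tested.

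The 6 scaffolds differed in length and coverage. 2RHet, of 3.29 Mb, had 316 members and was covered at 6.26% in replicate 1 and 7.44% in replicate 2. 3LHet had 233 members and was covered at 5.23% in replicate 1 and 6.41% in replicate 2. 3RHet had 240 members and was covered at 5.60% in replicate 1 and 5.52% in replicate 2. These large scaffolds therefore lay within 5.23% to 7.44% in either replicate, and their order changed between replicates. In the whole-series list they were alike too, at 20.7% on 2RHet, 18.8% on 3LHet and 19.00% on 3RHet.

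The short scaffolds rest on few regions. XHet, of 204 kb, had 34 members and was the most covered, at 14.0% in replicate 1 over 11 regions, 10.97% in replicate 2 over 8 regions and 38.2% in the whole-series list. 2LHet, of 369 kb, had 21 members and was covered at 4.55% in replicate 1 over 8 regions, 3.50% in replicate 2 over 4 regions and 10.9% in the whole-series list. In every list XHet lay above all the other scaffolds, and 2LHet lay below all but YHet. In the whole-series list XHet also lay above the autosomal arms, which were covered at 31.5%. On 2LHet the longest region alone held 4.85 of the 16.8 kb covered in replicate 1 and 7.48 of the 12.9 kb in replicate 2.

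**Figure D1:**
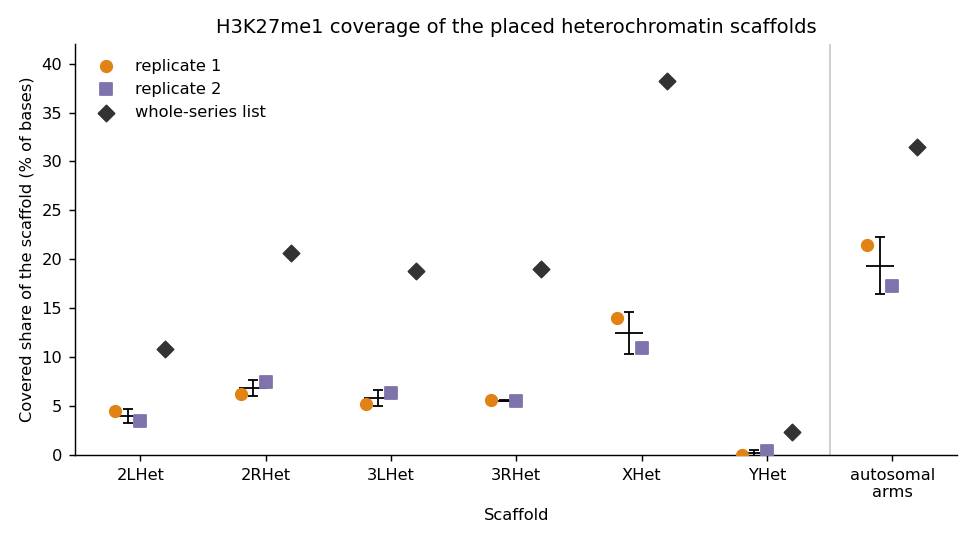
Share of bases covered by H3K27me1 regions (%) on each placed heterochromatin scaffold and, to the right of the line, on the 4 autosomal arms; circles and squares are the replicates, diamonds the whole-series list, and horizontal bars with whiskers the replicate mean ± SD (n = 2). Every scaffold lies below the arms in both replicates, though XHet lies above them in the whole-series list at 38.2% against 31.5%; XHet is the most covered of the 6, and YHet has 0 and 0.41% in the replicates.

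YHet was kept apart because it had 7 members. The Y chromosome is carried by males, holds few genes, and is heterochromatic along its whole length. None of its 347 kb was covered in replicate 1, and replicate 2 had 1 region, of 1.41 kb from 58268 to 59675 with a score of 1.50, which the whole-series list did not hold. The 7 members lay elsewhere, were 1.03 to 1.44 kb wide and overlapped neither replicate. Their scores were 1.47 (from 86221 to 87341), 1.26 (from 141460 to 142555), 0.64 (from 175052 to 176158), 1.20 (from 269325 to 270491), 2.31 (from 278205 to 279231), 0.52 (from 337088 to 338435) and 1.05 (from 342799 to 344238). A score of 1 or more was thus reached by 5 of 7, or 71.4% (Wilson interval 35.9 to 91.8). Such a score was held by 2.21% of all whole-series regions, 7.40% of the members on all scaffolds and 31.1% of regions on U. No base of YHet was in more than 1 list.

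Along the large scaffolds, H3K27me1 was gathered in a few stretches with long poor ground between them. Over 90 full bins of 100 kb on the 6 scaffolds, the replicate mean ran from 0 to 47.5% with a median of 2.95%, and 10 bins had no region in either replicate. The richest bin was 3LHet from 2.4 to 2.5 Mb, covered at 42.2% in replicate 1 and 52.8% in replicate 2. This bin lies beside the high-coordinate end of its scaffold. It was followed by 2RHet from 3.1 to 3.2 Mb with 35.1% and 40.5%, and by 2RHet from 0.2 to 0.3 Mb with 24.0% and 27.3%. Next came 2RHet from 1.3 to 1.4 Mb with 24.1% and 24.3%, and 3RHet from 1.9 to 2 Mb with 27.2% and 20.3%. The replicates ranked the bins in a similar order, with a Spearman coefficient of 0.69 over the 90 bins, a description of bins that share their libraries.

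The rich bins lay toward one end of 3LHet and 3RHet. The end is that of high coordinates, and the files do not state which end faces the centromere. With each scaffold cut into 3 equal parts from its start, the replicate mean on 3LHet was 1.62% ± 0.09, 5.85% ± 1.44 and 9.99% ± 1.16 (SD, n = 2). On 3RHet it was 1.82% ± 0.66, 3.97% ± 0.34 and 10.9% ± 0.5. Each replicate was higher in each further part on both scaffolds, and so was the whole-series list, which covered 10.9%, 18.0% and 28.1% of the parts of 3RHet. On 2RHet the gradient was shallower, with 5.35% ± 0.53, 6.01% ± 0.07 and 9.19% ± 1.91, and the whole-series list was lowest in the middle part, at 17.4%. 2LHet ran the other way, with 8.52% ± 0.94, 3.56% ± 1.31 and no replicate region in the last part.

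**Figure D2:**
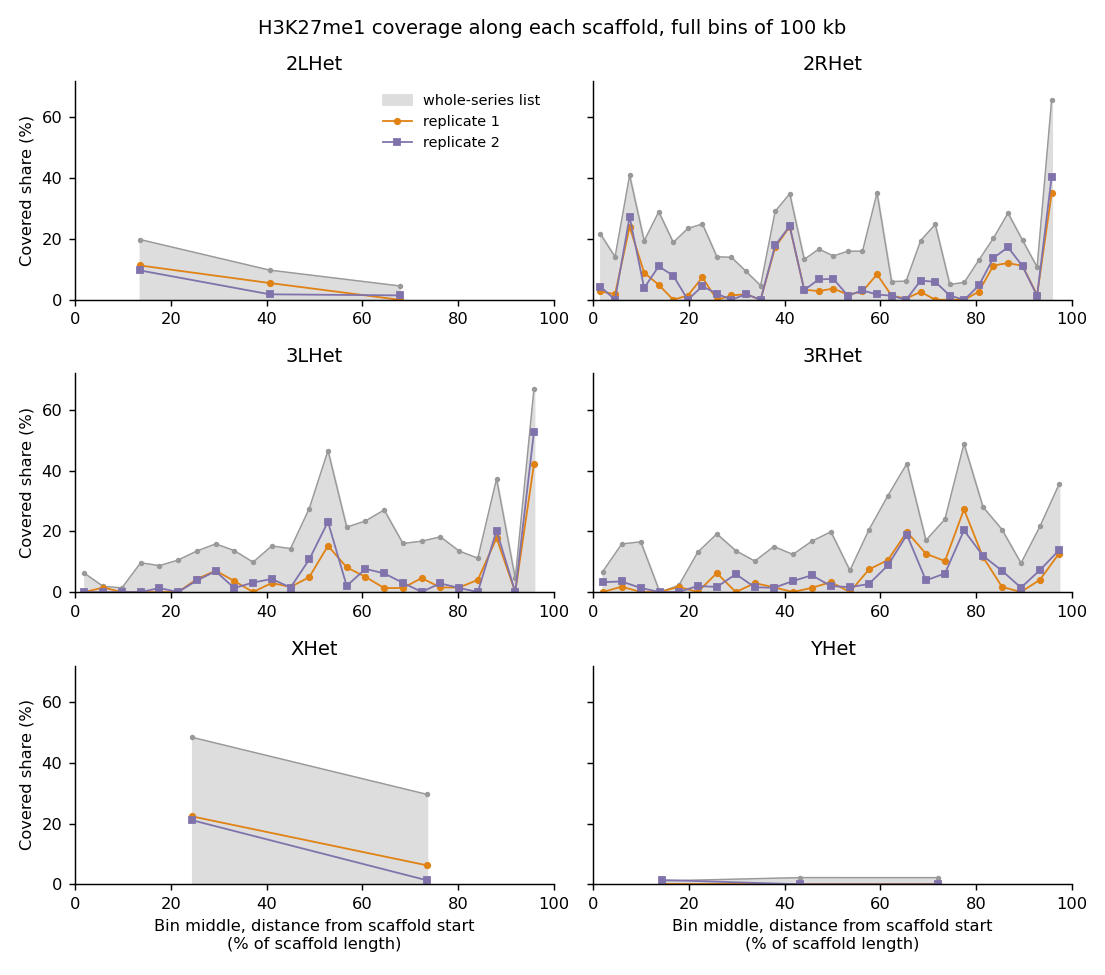
Covered share (%) in full bins of 100 kb against the distance of the bin's middle from the scaffold start, as % of scaffold length, one panel per scaffold; lines with circles and squares are replicates 1 and 2, the grey area is the whole-series list. Both replicates peak in the same bins, near the high-coordinate end of 2RHet and 3LHet (up to 40.5% and 52.8%), while the grey area is at or above them in all but 1 bin.

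Bases covered in both replicates formed 126 stretches of 253 kb in all, or 29.5% of the 857 kb covered in either replicate. With only the higher-scoring 50% of each list kept, this share was 19.6%. The shared bases were 48.1% of the bases of replicate 1 and 43.3% of those of replicate 2 on these scaffolds. On the autosomal arms 66.4% and 82.3% were shared, and on their centromere side 64.1% and 64.3%. On U 30.5% and 31.6% were shared, below the scaffolds, so low overlap was not particular to them. Of the shared bases of the scaffolds 46.3% lay on 2RHet, 27.0% on 3LHet and 17.7% on 3RHet. They were concentrated: 56 of the 90 full bins had none. The part of each scaffold nearest the high-coordinate end held 69.0% of the shared bases of 3LHet, 84.1% of those of 3RHet and 52.3% of those of 2RHet. YHet apart, where no base was shared, overlap was lowest on 3RHet, where 19.02% of the bases covered in either replicate were covered in both, against 29.8% on 3LHet, 35.1% on 2RHet, 36.8% on 2LHet and 40.4% on XHet.

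The 10 longest shared stretches held 22.5% of the shared bases, and all 10 lay wholly inside whole-series regions. The longest was 7.57 kb on 2RHet, from 1316497 to 1324065, with scores of 0.65 in replicate 1 and 0.71 in replicate 2. The second was 7.37 kb on 2RHet, from 2807536 to 2814901, with scores of 0.78 and 0.89. The third was 6.74 kb on XHet, from 68067 to 74808, with scores of 0.88 and 0.76. The gap between the replicate scores was small at each of these, and neither replicate was the higher throughout. On 2RHet there followed 6.33 kb from 3141076 to 3147410, 5.88 kb from 215221 to 221105 and 4.50 kb from 3131907 to 3136402. 3LHet contributed 5.62 kb from 2446105 to 2451720, and 2LHet 4.85 kb from 25471 to 30323. 3RHet contributed a pair inside 1 member, of 4.21 kb from 1691822 to 1696027 and 3.84 kb from 1700677 to 1704513. Scores at the 10 ran from 0.54 to 0.88 in replicate 1 and from 0.61 to 0.89 in replicate 2.

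The longest members were broad blocks seen by both replicates. A replicate score given for a member is the highest among the replicate regions that overlap it. First came 20.6 kb on 2RHet from 3127384 to 3147963, of which replicate 1 covered 92.6% and replicate 2 covered 86.7%, scored 0.91 and 0.81. Those scores lay at a shared stretch of 2.79 kb, while its longest shared stretch had 0.54 and 0.77. Next came 19.7 kb on 2RHet from 1292751 to 1312458, of which replicate 1 covered 88.7% and replicate 2 covered 69.8%, scored 0.69 and 0.74. It lies just before the ninth longest, 12.4 kb from 1316049 to 1328418, and the middles of the pair stand at 39.6% and 40.2% of the scaffold length. The longest of 3LHet was 14.9 kb from 2411640 to 2426527, covered at 69.4% and 77.7%. The longest of 3RHet was 14.6 kb from 1690220 to 1704791, covered at 91.4% and 71.4%.

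The others of the 10 longest were also held by both replicates; the first value is that of replicate 1 and the second that of replicate 2. On 2RHet, 13.9 kb from 2807307 to 2821203 was covered at 87.0% and 94.3%, and 13.6 kb from 213659 to 227254 at 74.4% and 91.6%. A further 12.7 kb on 2RHet from 2778008 to 2790717 was covered at 59.8% and 64.0%. The tenth, 10.9 kb on 2RHet from 2908371 to 2919310, was covered at 67.7% and 64.4% and scored 0.43 and 0.51, the lowest of the 10 in both replicates. On 3LHet, 13.0 kb from 2452760 to 2465793 was covered at 50.5% in replicate 1 and 94.5% in replicate 2, the widest gap between replicates among the 10. Outside the 10, the longest of XHet was 9.12 kb from 65838 to 74953, covered at 94.5% and 75.5%, and the longest of 2LHet was 7.26 kb from 23812 to 31068, covered at 66.9% and 100.0%.

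Such blocks were rare here. Members of 5 kb or more numbered 41, or 4.82% (95% Wilson interval 3.57 to 6.47), against 17% of all whole-series regions and 19.01% (18.2 to 19.9) on the autosomal arms. Members under 1.3 kb numbered 301, or 35.4% (32.2 to 38.6), against 21.6% of all whole-series regions and 19.1% (18.3 to 19.9) on the arms. On U 0.64% (0.22 to 1.86) of regions were 5 kb or more and 48.1% (43.6 to 52.6) under 1.3 kb. Wilson intervals take counting error alone into account, as though regions were independent draws. Replicate 1 regions had a median of 1676 bp on the scaffolds and 2285 bp on the arms, and replicate 2 regions had 1699 bp on the scaffolds and 2238 bp on the arms. The mean difference was -574 bp ± 49 (SD, n = 2), and -2137 bp with only the higher-scoring 50% of each list kept.

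Most members had no counterpart in a replicate list. A member was in both replicates in 86 of 851 cases, or 10.1% (8.26 to 12.3), against 35.1% of all whole-series regions. It was in neither in 527 cases, or 61.9%, against 37.8% of all whole-series regions. Replicate 1 alone had 110 members, or 12.9%, against 18.8% of all whole-series regions, and replicate 2 alone had 128, or 15.04%, against 8.36%. Among members at least as wide as the shortest replicate region, 15.6% were in both. The whole-series list belongs to the same series, so it was not taken as independent of the replicates. Seen from the replicates, 110 of the 245 regions of replicate 1, or 44.9%, overlapped a region of replicate 2, against 66.5% over the whole genome. Of the 264 regions of replicate 2, 106, or 40.2%, overlapped a region of replicate 1, against 81.6% over the whole genome.

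The share in both replicates lay between 8.75% and 14.3% on the 5 scaffolds other than YHet. It was 10.1% (7.26 to 13.9) on 2RHet, 11.2% (7.73 to 15.8) on 3LHet and 8.75% (5.79 to 13.0) on 3RHet. On XHet it was 4 of 34 and on 2LHet 3 of 21. The intervals of the 3 large scaffolds overlap, and their upper bounds lie below the share of 25.9% (22.3 to 29.9) on the centromere side of the autosomal arms. The arms as a whole stood at 39.1% (38.1 to 40.2), and U, the unplaced sequence, at 5.32% (3.63 to 7.73).

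Width separated the members that both replicates marked from those that neither did. Members in both replicates had a median width of 4538 bp, those in replicate 1 alone 1999 bp, those in replicate 2 alone 1840 bp and those in neither 1261 bp. On the autosomal arms these medians were 4782, 1998, 1918.5 and 1290.5 bp, so the separation was not particular to the members. A wide region also meets the rule of 1 bp of overlap more easily, and the part of this was not tested. At 5 kb or more, 37 of 41 members were in both replicates and 0 of 41 in neither. From 2 to 5 kb, 23.2% (17.8 to 29.6) were in both, and from 1.3 to 2 kb 1.27% (0.49 to 3.22). Of the 301 members under 1.3 kb, 0 were in both, which allows a share of up to 0.997% (3 counts of 301). The count was also 0, of 1631 regions of that width on the autosomal arms and of 226 on U, so this is no difference of the members. As deposited, the replicate lists hold no region shorter than 1301 bp.

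The share in both replicates was lower than on the arms at matched width too. At a width of 2 to 5 kb, 23.2% (17.8 to 29.6) of members were in both replicates, against 55.9% (54.1 to 57.7) of regions on the autosomal arms and 40.1% (33.0 to 47.7) on their centromere side. On U it was 25.7% (17.1 to 36.7) of 74 regions. This lies near the share of the members, so a low share was not particular to them. In neither replicate were 28.4% (22.5 to 35.1) of members of that width, 8.27% (7.34 to 9.32) of arm regions and 18.9% (11.6 to 29.3) of U regions. At 5 kb or more the shares in both were 90.2% (77.5 to 96.1) and 96.7% (95.8 to 97.5), whose intervals overlap.

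The 4 members of 5 kb or more that 1 replicate missed, singled out after their values were seen, had low scores. They were 5.43 kb on 3RHet from 2508004 to 2513429 and 5.27 kb on XHet from 8684 to 13956, both in replicate 1 alone. Replicate 2 alone had 5.16 kb on 3RHet from 2490533 to 2495687 and 5.02 kb on 2RHet from 3148541 to 3153559. Their whole-series scores ran from 0.34 to 0.41, below the median of 0.49 over all members. The last of them lies 0.58 kb from the longest member of all.

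**Figure D3:**
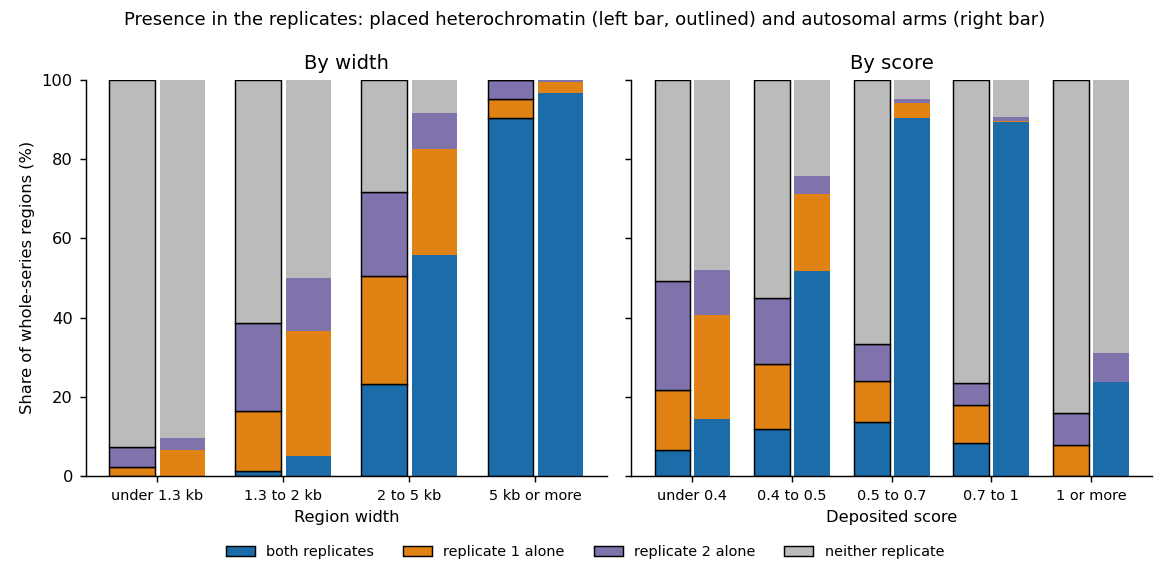
Share of whole-series regions (%) found in both replicates, in one or in neither, by region width (left) and by deposited score (right); outlined left bars are the placed heterochromatin, right bars the autosomal arms. The share in both grows with width in each, but at scores from 0.5 to 0.7 it is 13.6% for the placed heterochromatin and 90.5% for the arms.

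Score did not separate the members in this way. Members in both replicates had a median score of 0.50, and those in neither had 0.52. On the autosomal arms regions in both had 0.50 and regions in neither 0.35. Of the members scored 0.5 or more, 10.6% (7.99 to 13.9) were in both replicates, against 88.8% (87.3 to 90.1) of such regions on the autosomal arms and 45.3% (37.3 to 53.6) on their centromere side. Of U regions scored 0.5 or more, 5.03% (3.20 to 7.81) were in both. With width held at 2 to 5 kb and score at 0.5 to 1, the shares were 27.3% (18.6 to 38.1) of 77 members and 90.4% (87.7 to 92.5) of 572 arm regions. They were 62.5% (47.0 to 75.8) of 40 regions on the centromere side and 29.5% (18.2 to 44.2) of 44 on U.

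The relation of score to width also differed from that on the autosomal arms. Across the members the Spearman coefficient of width and score was -0.20, against 0.59 across regions of the autosomal arms and 0.19 on their centromere side. It was -0.06 in replicate 1 and 0.10 in replicate 2 on these scaffolds, against 0.73 and 0.67 on the arms. On U it was -0.38 in the whole-series list, -0.004 in replicate 1 and -0.015 in replicate 2. The negative sign on the scaffolds is thus held by the whole-series list and by replicate 1 and not by replicate 2, and it turned to 0.10 among members at least as wide as the shortest replicate region. These are descriptions across regions of 1 library each, with no p.

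**Figure D4:**
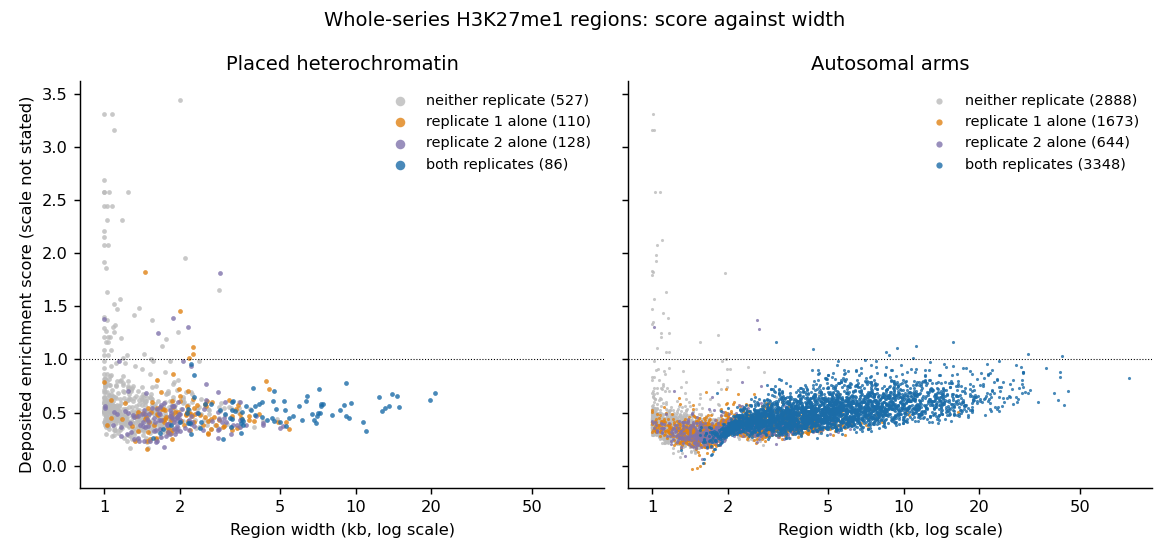
Deposited score (scale not stated) against region width (kb, log scale) for whole-series regions of the placed heterochromatin (left) and of the 4 autosomal arms (right); each point is a region, coloured by the replicates that hold it, and the dotted line is a score of 1. Scores of members in both replicates stay below 1 up to the longest of 20.6 kb, and the members scored 1 or more are 1.00 to 2.89 kb wide, 43 of 63 of them under 1.3 kb.

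Scores were higher on the scaffolds than on the autosomal arms in every list. The median was 0.61 on the scaffolds and 0.55 on the autosomal arms in replicate 1, 0.62 and 0.55 in replicate 2, and 0.49 and 0.39 in the whole-series list. On X the median was 0.64 in replicate 1 and 0.63 in replicate 2, above the scaffolds, while its whole-series median of 0.45 lay below them. U had a higher median than the scaffolds by every list. Its medians were 0.78 and 0.72 for replicates 1 and 2, and the whole-series list had 0.68. Higher scores than on the autosomal arms were thus not particular to the scaffolds. The difference of the scaffolds from the autosomal arms in the replicates was 0.065 ± 0.015 (SD, n = 2), and 0.034 with only the higher-scoring 50% of each list kept.

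Most high scores belonged to narrow members outside the replicate lists. A score of 1 or more was held by 63 members, or 7.40% (5.83 to 9.36), against 2.21% of all whole-series regions and 0.49% (0.36 to 0.66) on the autosomal arms. Among the 10% of whole-series regions with the highest scores were 162 members, or 19.04% (16.5 to 21.8), against 10% of all whole-series regions. Both shares were higher on U, with 31.1% (27.0 to 35.4) scored 1 or more and 51.9% (47.4 to 56.4) among the highest 10%. Of the 63, 43 were under 1.3 kb, 53 were in neither replicate, 5 in replicate 1 alone, 5 in replicate 2 alone and 0 in both, which allows a share in both of up to 4.76% (3 counts of 63, counting error only). The highest score of a member in both replicates was 0.96. On the autosomal arms 10 of 42 regions with such scores were in both replicates, each at least 3118 bp wide, and 29 were in neither, with a median width of 1051 bp. On the centromere side of the arms 0 of 13 were in both and 13 in neither, and on U 3 of 146 were in both and 129 in neither, so few high scores in both replicates were not particular to the scaffolds. With regions within 1 kb joined, the share of such members in both was 3.17%.

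The 10 highest-scoring members overlapped no replicate region. The first was 2.00 kb wide on 2RHet from 1013139 to 1015140, with a score of 3.45 and its nearest neighbour 10.8 kb away. Both of the next had a score of 3.31 on 2RHet, 1.00 kb from 805865 to 806868 and 1.07 kb from 897133 to 898203. The fourth, 1.10 kb on 2RHet from 3096903 to 3098002, had 3.16. The highest of 3LHet was 1.00 kb from 571241 to 572241, with 2.69. The highest of 3RHet was 1.24 kb from 1607629 to 1608871, with 2.57. On XHet 1.00 kb from 35027 to 36027 had 2.45, and on 2LHet 1.02 kb from 127832 to 128850 had 1.27.

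The other members of the 10 had scores of 2.45 to 2.57. They lay on 2RHet from 2636929 to 2637929 and from 872837 to 873910, and on 3LHet from 2060616 to 2061658 and from 2525229 to 2526229. Exact scores recurred among such members: 47 of 63 with a score of 1 or more, or 74.6% (62.7 to 83.7), had a score that another whole-series region holds to the last deposited digit, against 31% of all whole-series regions. Among whole-series regions scored 1 or more the share was 68.1% (62.4 to 73.4), and among such arm regions 54.8% (39.9 to 68.8), so members scored 1 or more lay near other such regions. This did not hold at scores of 0.5 to 1. There 40.1% (35.1 to 45.3) of 352 members had a recurring score, against 15.2% of whole-series regions and 7.85% of arm regions. Over all scores it was 45.1% of members and 52.6% of U regions. The score of 2.57 was held by 4 members 1.00 to 1.24 kb wide and by 10 whole-series regions. Among members in both replicates 10 of 86, or 11.6% (6.44 to 20.1), had a recurring score, near the 9.61% of all whole-series regions in both replicates.

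Within each replicate the highest scores were also narrow and unshared, with 1 exception on 3LHet. The 10 highest-scoring regions of replicate 1 were 1323 to 1878 bp wide and those of replicate 2 were 1371 to 2023 bp wide. In each, 1 of the 10 overlapped the other replicate, and it was the same place. Replicate 1 had it from 2430332 to 2432209 with a score of 2.48, and replicate 2 from 2430316 to 2432220 with 2.58, the highest of replicate 2 on these scaffolds. The member over it, 5.18 kb from 2427136 to 2432312, had a score of 0.61 and was covered at 77.3% in replicate 1 and 76.2% in replicate 2. The highest region of replicate 1 was 1.39 kb on 3LHet from 1886254 to 1887646, with 2.76; it lay inside a member with a score of 1.82 and had no counterpart in replicate 2. Shared regions had lower median scores than unshared ones, 0.55 against 0.65 in replicate 1 and 0.59 against 0.63 in replicate 2. On the autosomal arms shared regions had the higher median, 0.59 against 0.50 and 0.56 against 0.49.

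Members covered at 50% or more in both replicates numbered 56, or 6.58% (5.10 to 8.45), against 27.4% of all whole-series regions. By the lower of the replicate scores, the member over the 3LHet place above came first, followed by the 13.6 kb block of 2RHet with 0.98 in replicate 1 and 1.03 in replicate 2. In that block those scores lay at a shared stretch of 0.99 kb, while its longest shared stretch had 0.56 and 0.64. Both of the next were short and lay on 3RHet. One was 2.22 kb from 1598335 to 1600553, with 0.96 and 1.07, and covered at 91.6% and 99.2%. The other was 2.28 kb from 1270380 to 1272661, with 0.87 and 1.04. Another on 3RHet, 3.89 kb from 1640342 to 1644232, had 0.94 and 0.74. The remaining 5 of the 10 were the longest member of XHet, the longest of 3RHet and 3 of the long 2RHet blocks, with lower scores between 0.72 and 0.84. At 90% covered or more in both replicates there were 3 members, or 0.35%, against 4.07% of all whole-series regions.

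Most members had a near neighbour, though a smaller share than on the autosomal arms. A neighbour within 5 kb was held by 669 of 851, or 78.6% (75.7 to 81.2), against 85.1% of all whole-series regions and 86.8% (86.1 to 87.5) on the autosomal arms. On U the share was 51.7% (47.2 to 56.2). In the whole-series list the density was 91.7 members per Mb, against 88.5 regions per Mb on the arms. In the replicates it was lower on the scaffolds, at 26.4 regions per Mb against 63.9 on the arms in replicate 1 and 28.4 against 53.3 in replicate 2. In the whole-series list the median gap to the nearest neighbour was 1639 bp on the scaffolds and 910 bp on the arms. The share with a neighbour was 76.7% to 80.4% on 2RHet, 3LHet and 3RHet, 94.1% on XHet over 34 members and 57.1% on 2LHet over 21. Of the 182 members with no neighbour within 5 kb, 4 were in both replicates, or 2.20%. Of those with one, 82 were in both, or 12.3%. Regions of the autosomal arms had the same order, with 25.8% of those without such a neighbour and 41.2% of those with one. On U the order was the other way, with 6.17% of 227 regions without such a neighbour and 4.53% of 243 with one. Members without such a neighbour had a median width of 1363 bp, against 1590 bp for the others.

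The members formed 189 groups of 2 or more with gaps of at most 5 kb. The largest had 17 members over 65.9 kb at the end of 2RHet, from 3201937 to 3267794, of which 4 were in both replicates. The next had 16 members over 56.0 kb on 2RHet from 1902404 to 1958404, and none was in both replicates. The same held for 11 members on 2RHet from 2346135 to 2391256, which replicate 1 did not cover at all, and for 11 members on XHet from 741 to 36027. Of 3 groups tied at 10 members, the one with the longest span, 57.3 kb on 3RHet from 1921812 to 1979149, had 5 in both replicates, and 43.7% and 35.4% of its span was covered. The others, on XHet from 146564 to 183455 and on 2RHet from 46805 to 75675, had 0 in both. A dense group in the whole-series list was therefore in some places also dense in the replicates and in others not.

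Between the groups lay ground that none of the 3 lists touched. Its longest piece was 131 kb on 2RHet from 2642243 to 2773360. It was followed by 121 kb on 2RHet from 1134853 to 1255660, 121 kb on 2RHet from 2453586 to 2574228, 119.5 kb on 3RHet from 297487 to 417009 and 112 kb on 3LHet from 170816 to 282423. The first of these ends just before the 12.7 kb block of 2RHet that starts at 2778008, so empty and rich ground stood side by side. Stretches of 30 kb or more numbered 47 and made up 28.7% of the 9.28 Mb. No value for the arms is given beside this share, so it is not read as a trait of the scaffolds. Unplaceable sequence inside them was not assessed.

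The whole-series list added more to the replicates here than on the arms. It covered 19.03% of the scaffolds, and 967 kb of that, or 54.7%, lay in no replicate, against 23.5% on the autosomal arms. The share in no replicate was 34.8% on the centromere side of the arms and 70.7% on U, so a high share was not particular to the scaffolds. This share was alike on the scaffolds with 20 or more members, from 48.2% on 2LHet to 57.8% on XHet. Members in neither replicate lay a median of 8.35 kb from the nearest replicate region, and 38.5% lay within 5 kb of one, against 3.23 kb and 61.1% on the arms. Replicate regions were also sparser on the scaffolds, at 26.4 and 28.4 per Mb against 63.9 and 53.3 on the arms. The part of that density in these distances was not tested. Of the replicate bases on the scaffolds the whole-series list held 96.9% for replicate 1 and 92.9% for replicate 2. YHet apart, its lowest share was 90.05%, for replicate 2 on 3RHet.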

How the data were processed

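H3K27me1 ChIP-seq regions of 2 ChIP samples were analysed from 3 deposited lists, 1 for each replicate and 1 for the whole series. Each line gives a scaffold, a start, an end and an enrichment score made by the authors, per the file headers on FlyBase release 5. Bowtie 0.12.7 is named, with no role, per the submitters' processing notes; the caller of the regions, the threshold, whether input was subtracted and how replicates were merged were not stated in the labels or headers. Regions running past a scaffold end were trimmed (1 in replicate 1, 2 in the whole-series list). Coverage, overlap (1 bp or more), widths, scores, gaps (5 kb) and bins (100 kb) were computed with numpy 2.4.6, scipy 1.17.1 and pandas 2.3.3 under Python 3.11.15, and drawn with matplotlib 3.10.9. The interval code was tested on simulated data. A member is in a replicate where they overlap. Shares have 95% Wilson intervals; depth is unknown. Members, lists and rules were chosen with earlier results of these data known, and the width-score correlation and the share of members scored 1 or more in both replicates were added after seeing the data. Named by rule are the 10 longest and 10 highest-scoring members, the longest and highest of each scaffold with 20 or more members, all of YHet, the 10 with the highest lower replicate score among those covered at 50% or more in both, the 10 longest shared stretches, the highest region of each replicate, the 5 largest groups and the 5 longest empty stretches. Genes were to be named, but the gene table at hand is on release 6 and was not used. Alternatives were a score filter, joining regions within 1 kb, a width filter, other overlaps and gaps, the centromere side of the arms, the whole-series list and leaving out a replicate.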

Additional observations from a re-analysis of the deposited data

How the results depend on the processing

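Over 11 results, 68 alternative values were computed: 39 kept their direction and moved little, 27 moved and 2 reversed. For the covered share, its ratio, and the score and width differences, moving little meant lying within the replicate mean ± SD. With 2 replicates each single value must lie there, so leaving out a replicate could not test these results. Keeping scaffolds with 20 or more members dropped only YHet, with 7 of 851 members, so most values had little room to move. The 39 therefore include values that could not have moved and are no measure of stability. For shares of members, moving little meant lying within the Wilson interval. For the overlap of the replicates that interval, 29.40 to 29.59%, took each base as an independent draw, so a value of 30.7% was counted as moved. For the width-score coefficient it meant lying within the main value ± SD of the 2 replicate coefficients. The 27 therefore depend on these rules too. No paired analysis was possible because the ChIP samples form 1 group and the input samples that share their numbers were not analysed here; ratios and differences from the arms were formed within each replicate. When only the higher-scoring 50% of each list was kept, the covered share of the placed heterochromatin was 3.98%, the overlap of the replicates 19.6%, the share of members in both replicates 6.97% and in neither 69.3%, the median score lay 0.034 above the arms, the median width difference was -2137 bp, and 67.7% of members had a neighbour. The whole-series list gave a covered share of 19.03%, a ratio to the arms of 0.60 and a score difference of 0.11. Joining regions within 1 kb gave an overlap of 30.7%, a width difference of -1060 bp and 66.7% with a neighbour. Members at least as wide as the shortest replicate region were in both replicates in 15.6% and in neither in 45.3%, 66.9% had a neighbour, 12.9% were among the highest-scoring 10%, and the width-score coefficient reversed to 0.098. With 50% of the member covered as the rule, 6.58% were in both and 65.7% in neither. The width difference was -328 bp against the centromere side of the arms. Neighbours within 2 kb and 10 kb were held by 55.2% and 93.7%. Cuts at the highest-scoring 5% and 20% held 12.1% and 35.02% of members. The coefficient was -0.058 in replicate 1 and reversed to 0.10 in replicate 2. Leaving out a replicate gave covered shares of 5.67% to 6.29%, ratios of 0.26 to 0.36, score differences of 0.054 to 0.075, width differences of -609 to -539 bp and members in neither of 74.9% to 77.0%; overlap and the share in both have no value with 1 replicate. The cause of these shifts was not tested. Depth is unknown, 2 replicates bound every spread, and mappability was not assessed.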
